A study of Mus musculus with 6 samples.

Results

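Ezh2 occupancy was examined at 8 genes of the Notch signalling pathway in mouse embryonic stem (ES) cells: the ligand genes Dll1, Dll3, Dll4, Jag1 and Jag2 and the target genes Hes5, Hey1 and Hey2. They were taken by symbol from the authors' peak lists, and all 8 occurred there. Of the 9614 genes named in those lists, 9612 had a window with at least 5 probes. Shares and percentiles over all windows refer to these 9612 peak-listed genes and not to all promoters on the array. The signal of a gene was the mean log2 ratio of Ezh2 ChIP over input across the array probes within 2 kb of its listed transcription start, after each array had been centred on its median. A step of 1 in log2 is a 2-fold change in the ratio.

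The series asked how the loss of Brca1, a tumour suppressor that acts in DNA repair, affects where Ezh2 binds. PL2F8 ES cells are deficient in Brca1 and AB2.2 ES cells are Brca1 wild type. Both are of the strain given as 129/SvEvBrd-Hprtb-m2, and each was measured on 2 arrays. R1 ES cells had been transfected with Brca1 siRNA (1 array) or control siRNA (1 array) and were harvested 48 h later. All cells were grown on gelatin with serum and LIF, the cytokine that keeps mouse ES cells undifferentiated. PL2F8 and AB2.2 are single lines, so a difference between them cannot be told apart from any other difference between the lines. Whether the duplicate arrays stem from separate cultures is not in the labels, and their p-values may therefore reflect technical spread alone. An array of this kind reads binding at DNA. It can check neither the loss of Brca1 nor the expression of ES cell genes in any sample. Ezh2 signal at 5 ES cell genes with a window was between -0.59 at Pou5f1 on PL2F8 replicate 2 and 3.25 at Esrrb in R1 cells with Brca1 siRNA.

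Ezh2 is the catalytic subunit of Polycomb repressive complex PRC2, which methylates a lysine of histone H3 and keeps developmental genes silent. In ES cells the complex sits mainly at CpG-rich promoters of genes that are used later in the embryo. In Notch signalling, a Delta-like or Jagged ligand on one cell binds a Notch receptor on its neighbour, the receptor is cleaved, and its intracellular part enters the nucleus, joins the DNA-binding protein Rbpj and switches on genes of the Hes and Hey families. Hes and Hey proteins are transcriptional repressors that hold back differentiation, for example of neural precursors.

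The promoters of 4 of these genes are shown because the results turn on them: Dll4 had the highest mean signal over the 6 arrays, Jag2 the lowest and, in the median-centred window means, Hes5 the largest rise in PL2F8 and Dll1 the largest fall. The sequences are the 250 bases upstream of each RefSeq start, 5′ to 3′ on the strand of the gene, in assembly GRCm38.p6, with each CpG in capitals. Dll4 lies at chr2:119325534-119325783 on the plus strand, Jag2 at chr12:112929496-112929745 on the minus strand and Hes5 at chr4:154960673-154960922 on the plus strand. Dll1 has 2 RefSeq starts on the minus strand, with upstream sequences at chr17:15375824-15376073 and, further upstream, at chr17:15376933-15377182.
Dll4: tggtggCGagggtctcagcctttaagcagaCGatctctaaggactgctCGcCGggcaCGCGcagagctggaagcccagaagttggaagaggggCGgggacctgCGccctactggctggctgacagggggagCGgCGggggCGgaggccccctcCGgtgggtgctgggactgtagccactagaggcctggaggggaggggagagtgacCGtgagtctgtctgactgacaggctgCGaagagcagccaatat
Jag2: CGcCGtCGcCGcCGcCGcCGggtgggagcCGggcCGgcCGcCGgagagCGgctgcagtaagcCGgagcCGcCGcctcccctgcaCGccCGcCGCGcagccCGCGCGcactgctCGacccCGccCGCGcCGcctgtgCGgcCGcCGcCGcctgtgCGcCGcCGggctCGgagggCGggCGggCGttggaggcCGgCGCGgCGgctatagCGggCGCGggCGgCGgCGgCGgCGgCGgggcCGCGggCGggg
Hes5: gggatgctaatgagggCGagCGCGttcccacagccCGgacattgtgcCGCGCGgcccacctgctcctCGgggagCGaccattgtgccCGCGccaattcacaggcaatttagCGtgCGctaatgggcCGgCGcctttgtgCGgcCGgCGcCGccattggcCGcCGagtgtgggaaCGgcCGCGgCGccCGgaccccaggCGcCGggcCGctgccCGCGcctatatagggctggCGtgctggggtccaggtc
Dll1, downstream start: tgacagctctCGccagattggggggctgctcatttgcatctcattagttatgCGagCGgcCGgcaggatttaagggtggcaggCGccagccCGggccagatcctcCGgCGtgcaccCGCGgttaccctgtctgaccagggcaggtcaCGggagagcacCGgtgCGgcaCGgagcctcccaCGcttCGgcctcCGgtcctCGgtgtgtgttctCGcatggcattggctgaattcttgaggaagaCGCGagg
Dll1, upstream start: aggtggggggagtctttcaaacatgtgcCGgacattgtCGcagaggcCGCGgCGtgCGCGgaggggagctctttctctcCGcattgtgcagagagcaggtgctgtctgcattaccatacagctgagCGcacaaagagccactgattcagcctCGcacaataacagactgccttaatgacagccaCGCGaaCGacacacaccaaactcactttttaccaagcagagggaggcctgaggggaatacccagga
These windows held 14 CpG in Dll4, 54 in Jag2, 32 in Hes5, and 21 and 13 at the downstream and upstream starts of Dll1. RefSeq had promoter entries for 7 of the 8 genes, 8 promoters in all. Counted over 300 bases, from 250 before to 50 after the start, they held between 11 CpG in Dll3 and 63 in Jag2, with 41 in Hes5, 29 in Hey2, 24 and 15 in Dll1, 22 in Jag1 and 17 in Dll4. The median over all 32851 promoters in the table was 7, and 41.4% of them held at least as many CpG as Dll3. The gene with the most CpG, Jag2, was the one with the lowest Ezh2 signal of the 8. The letters TGGGAA, the core that Rbpj binds, occurred on either strand in 2 of the 8 promoters, those of Hes5 and Hey2, with 2 matches in each, against 25.6% of all promoters. The letters CACNAG, the N box of Hes proteins, occurred in 2 promoters, that of Dll4 and the upstream one of Dll1, against 42.5% of all. The E box CACGTG, bound by Hey proteins, occurred in 0 of the 8, against 7.15% of all.

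All 8 genes carried Ezh2 signal above the array median on every array, and the lowest value was 0.34, at Jag2 on AB2.2 replicate 2. The median window also lay above the array median, between 0.27 on AB2.2 replicate 2 and 0.59 on PL2F8 replicate 1. On the R1 control array Jag2 had 0.48, against 0.49 for the median window. By mean over the 6 arrays, Dll4 stood at the 98.7th percentile of all 9612 windows, Hey2 at the 96.2nd, Dll1 at the 95.2nd, Hes5 at the 93.2nd, Hey1 at the 82.1st, Jag1 at the 80.9th, Dll3 at the 73.1st and Jag2 at the 55.6th. In PL2F8 the order of levels was Dll4, Hey2, Hes5, Dll1, Jag1, Hey1, Dll3 and Jag2, and both arrays of each gene lay above both arrays of the next. In AB2.2 Dll1 came second after Dll4. There the arrays of the neighbours Dll4 and Dll1, Hey1 and Jag1, and Dll3 and Jag2 overlapped. In R1 cells Dll4 and Hey2 came first and Jag2 last with either siRNA.

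Against AB2.2, the signal in PL2F8 fell at 1 of the 8 genes, the ligand Dll1, and rose at 4: the ligands Dll3 and Jag1 and the targets Hes5 and Hey1. Dll4, Jag2 and Hey2 did not pass the test (limma, adjusted over all windows, threshold 0.05). Over all windows, 72% were called: 63.5% higher and 8.54% lower in PL2F8. Higher calls were 88.1% of all calls, against 71% under quantile normalization. The upward calls, 4 of 8, were thus no larger a share than the background. The median difference was 0.21 over the 8 genes and 0.30 over all windows. Of the 8 genes, only Dll3, Jag1 and Hes5 therefore lay above the typical window, by 0.30, 0.11 and 0.34, and Hey1 rose by 0.08 less than it. Genes entered the set of windows through a listed peak on any array. More of them were listed on the PL2F8 arrays (68.8% and 67.5%) than on the AB2.2 arrays (58.5% and 51.6%). How far this choice of genes shaped the typical window was not tested.

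**Figure D1:**
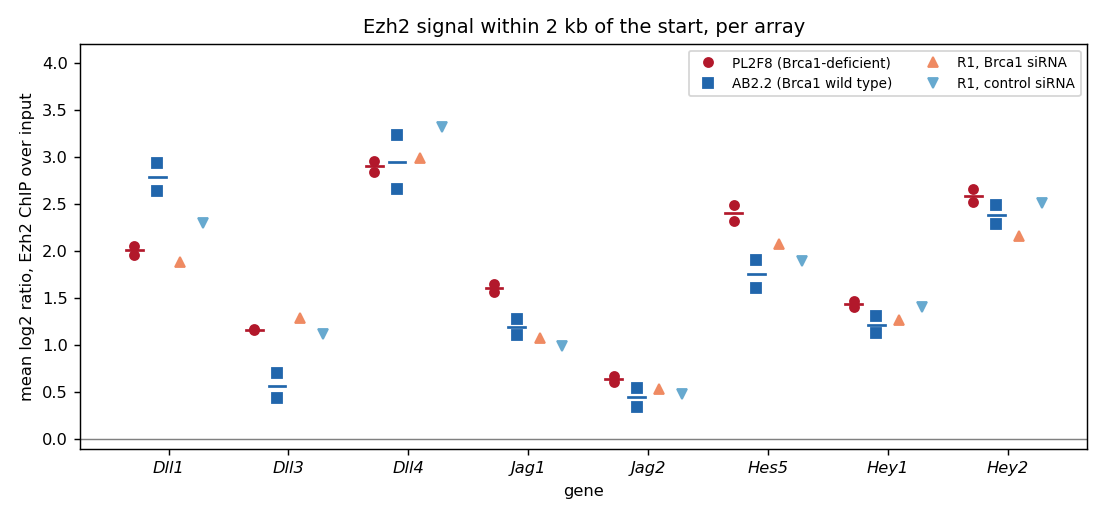
Mean log2 ratio of Ezh2 ChIP over input within 2 kb of the start (vertical axis) for each gene (horizontal axis). Points are single arrays and short lines the means of the 2 arrays of a line. Both PL2F8 arrays sit below both AB2.2 arrays at Dll1, as in 14.1% of all windows, and overlap them at Dll4. They sit above them at the other 6 genes, as in 74% of all windows.

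Among the ligands, Dll1 encodes a Notch activator used in the presomitic mesoderm and nervous system. Its listed start is at position 15512787 of chromosome 17 on the minus strand in the coordinates of the files, for which the sources used here name no build. Its signal was 2.05 and 1.96 in PL2F8, against 2.94 and 2.64 in AB2.2. Both PL2F8 arrays were the lower ones, without overlap, as in 14.1% of all windows. The difference was -0.78 (SE 0.10, adjusted p = 3.5e-04), or 0.58 times the ChIP-over-input ratio of AB2.2, and 0.499% of windows fell by at least as much. Taken as the median of its 28 probes, the fall was -0.53 and did not pass (limma adjusted p = 0.0736).

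Dll3 encodes a divergent Delta protein that, in mouse somite formation, acts inside the signal-receiving cell and does not activate Notch on a neighbour. Its start is at position 29086804 of chromosome 7, minus strand. It had 1.17 and 1.16 in PL2F8, against 0.71 and 0.43 in AB2.2. The PL2F8 arrays lay above the AB2.2 arrays, as in 74% of all windows, and the difference was 0.60 (SE 0.09, limma adjusted p = 8.36e-04). Under quantile normalization the rise was 0.38.

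Dll4, the ligand that restrains sprouting of blood vessels, starts at position 119151564 of chromosome 2, plus strand. It had 2.96 and 2.84 in PL2F8, against 3.23 and 2.66 in AB2.2. The 2 AB2.2 arrays lay on either side of the PL2F8 arrays and the difference of -0.04 (SE 0.16, limma adjusted p = 0.812) was within their spread. Its sign hung on single arrays: without AB2.2 replicate 1 the difference was 0.24, and without AB2.2 replicate 2 it was -0.33. Quantile normalization gave -0.35, which passed (limma adjusted p = 0.00622).

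Jag1, a ligand needed in the inner ear, heart and bile ducts, starts at position 136942067 of chromosome 2, minus strand. It had 1.65 and 1.56 in PL2F8, against 1.28 and 1.11 in AB2.2, a rise of 0.41 (SE 0.08, limma adjusted p = 0.0022) with no overlap. With the highest running mean of 5 probes, the Jag1 difference of 0.39 did not pass (limma adjusted p = 0.105). Quantile normalization gave a rise of 0.17 and centring on windows with no listed peak 0.26. Jag2, a ligand of limb and craniofacial development, starts at position 114167706 of chromosome 12, minus strand. It had 0.67 and 0.61 in PL2F8, against 0.55 and 0.34 in AB2.2. The arrays did not overlap, but the difference of 0.19 (SE 0.08, limma adjusted p = 0.0671) did not pass. It did pass within 1 kb of the start, at 0.58 (limma adjusted p = 0.00255), with the highest running mean of 5 probes, at 0.61 (limma adjusted p = 0.00888), and with arrays scaled to 1 spread, at 0.19 (limma adjusted p = 0.0464).

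Of the targets, Hes5, a repressor that maintains neural stem cells, had the largest rise of the 8 genes by window mean. Dll3 rose more within 1 kb of the start (0.89 against 0.78) and under quantile normalization (0.38 against 0.28), and Jag1 rose more by the median of the probes (0.65 against 0.58). Hes5 starts at position 154335031 of chromosome 4, plus strand, and its signal was 2.49 and 2.31 in PL2F8, against 1.91 and 1.61 in AB2.2. The difference was 0.64 (SE 0.11, limma adjusted p = 0.00118), 1.56 times the ratio of AB2.2. Hey1 and Hey2, repressors used in heart and vessel development, start at position 8667038 of chromosome 3 and position 30562589 of chromosome 10, both on the minus strand. Hey1 had 1.47 and 1.41 in PL2F8, against 1.31 and 1.13 in AB2.2, a rise of 0.22 (SE 0.08, limma adjusted p = 0.0317) that was lost in 3 of the 4 fits that left out an array. Hey2 had 2.66 and 2.52 in PL2F8, against 2.49 and 2.28 in AB2.2, a difference of 0.20 (SE 0.09, limma adjusted p = 0.0713) that did not pass. At both Hey genes the PL2F8 arrays lay above the AB2.2 arrays by less than the typical window. Under quantile normalization, where the median of all windows was 0.14, the differences were -0.05 at Hey1, -0.02 at Hey2 and -0.03 at Jag2, and none of these passed.

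In both lines replicate 1 lay above replicate 2 at all 8 genes. Over all windows, replicate 1 was higher by a mean of 0.095 in AB2.2 and 0.048 in PL2F8. The duplicates of AB2.2 differed with an SD of 0.123 over all windows and those of PL2F8 with an SD of 0.061, while window values correlated at r = 0.989 and 0.998. The array numbers form 2 runs. The run with both AB2.2 arrays also holds PL2F8 replicate 2, and within it the differences were -0.83 at Dll1, 0.59 at Dll3, -0.10 at Dll4, 0.37 at Jag1, 0.16 at Jag2, 0.56 at Hes5, 0.19 at Hey1 and 0.13 at Hey2. The Hey1 call was lost there (limma adjusted p = 0.2), and the lone PL2F8 array is assumed to vary like the AB2.2 pair. The other run holds no AB2.2 array.

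In R1 cells, no gene of the 8 differed by 0.5 or more between the 2 arrays, against 6.08% of all windows, 2.78% of them lower with Brca1 siRNA. With 1 array per condition there was no test. Dll1 had 1.89 with Brca1 siRNA and 2.30 with control siRNA, a difference of -0.41, and 5.32% of windows were lower by at least as much. It was the only one of the 8 both called lower in PL2F8 and lower with Brca1 siRNA, as were 4.83% of all windows. Dll4 had 2.99 with Brca1 siRNA and 3.32 with control siRNA, and Hey2 had 2.16 with Brca1 siRNA and 2.51 with control siRNA. Hey1 was also lower, with 1.27 under Brca1 siRNA and 1.41 under control siRNA. Thus 4 of the 8 were lower with Brca1 siRNA, as were 50.1% of all windows. The other 4 were slightly higher: by 0.18 at Hes5, 0.16 at Dll3, 0.08 at Jag1 and 0.05 at Jag2. The median R1 difference was -0.04 over the 8 genes and -0.00073 over all windows.

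**Figure D2:**
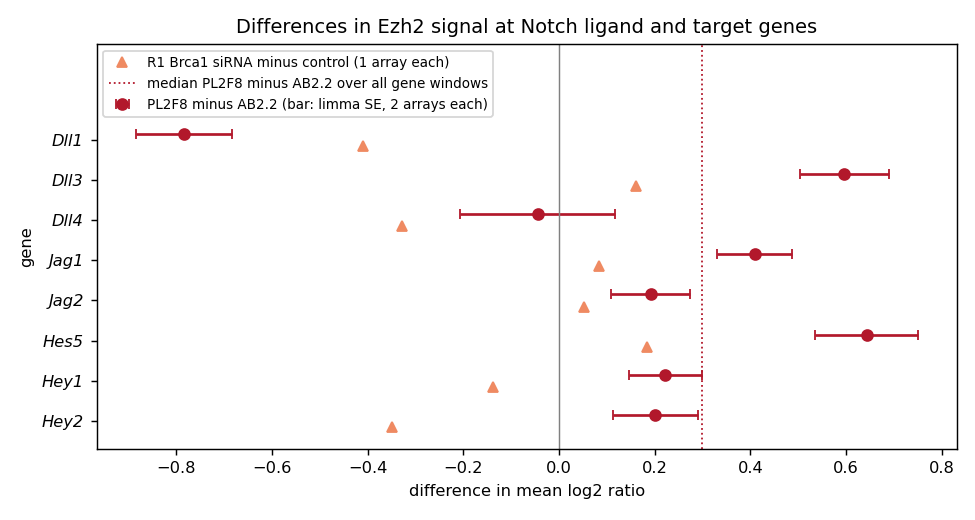
Differences in mean log2 ratio (horizontal axis) for each gene (vertical axis). Circles are PL2F8 minus AB2.2 with bars of 1 limma SE (2 arrays each), triangles are R1 Brca1 siRNA minus control (1 array each) and the dotted line is the median PL2F8 minus AB2.2 over all windows, 0.30; Dll1 lies furthest to the left in both comparisons.

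Tiling reached from about 2 kb upstream to about 800 bp downstream of the start, and to 1911 bp downstream at Hes5, so the shape of the signal could be followed in bins of 250 bp. At Dll1 the fall was largest upstream. Downstream, PL2F8 minus AB2.2 was -0.92 from the start to 250 bp and -0.83 from 250 to 500 bp. It was 0.28 from 500 to 750 bp and 0.46 at the single probe beyond. Between 1250 and 1000 bp upstream, the signal was 2.52 and 2.42 in PL2F8, against 5.66 and 5.41 in AB2.2. In R1 cells the same bin had 2.32 with Brca1 siRNA and 3.30 with control siRNA. This bin was the summit of Dll1 on both AB2.2 arrays, whereas on the PL2F8 and R1 arrays the summit lay 250 to 500 bp downstream of the start.

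At the probe 1200 bp upstream of the Dll1 start, PL2F8 had 2.63 and 2.34 and AB2.2 had 6.21 and 6.01, with 2.12 for R1 Brca1 siRNA and 3.06 for R1 control siRNA. The difference between the lines there, -3.62, was the lowest of the 28 probes. The 8 probes between 1250 and 500 bp upstream, a stretch chosen after the values were seen, averaged 2.17 and 2.05 in PL2F8 and 4.49 and 4.18 in AB2.2. In R1 cells they averaged 2.05 with Brca1 siRNA and 2.66 with control siRNA. The other 20 probes averaged 2.00 and 1.93 in PL2F8 and 2.32 and 2.03 in AB2.2, and without the stretch the difference at Dll1 was -0.21 and did not pass (limma adjusted p = 0.0915). Of all 28 probes, 14 had both PL2F8 arrays below both AB2.2 arrays, 5 had them above and 9 overlapped. Over the 253380 probes in all windows, 26.6% lay below and 50.3% above. The 2 RefSeq starts of Dll1 lie 1109 bases apart. The peak lists give 1 start, and their positions do not match those of the RefSeq assembly, so the upstream summit was not assigned to a start. The part of the RefSeq upstream start in this summit was not tested.

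**Figure D3:**
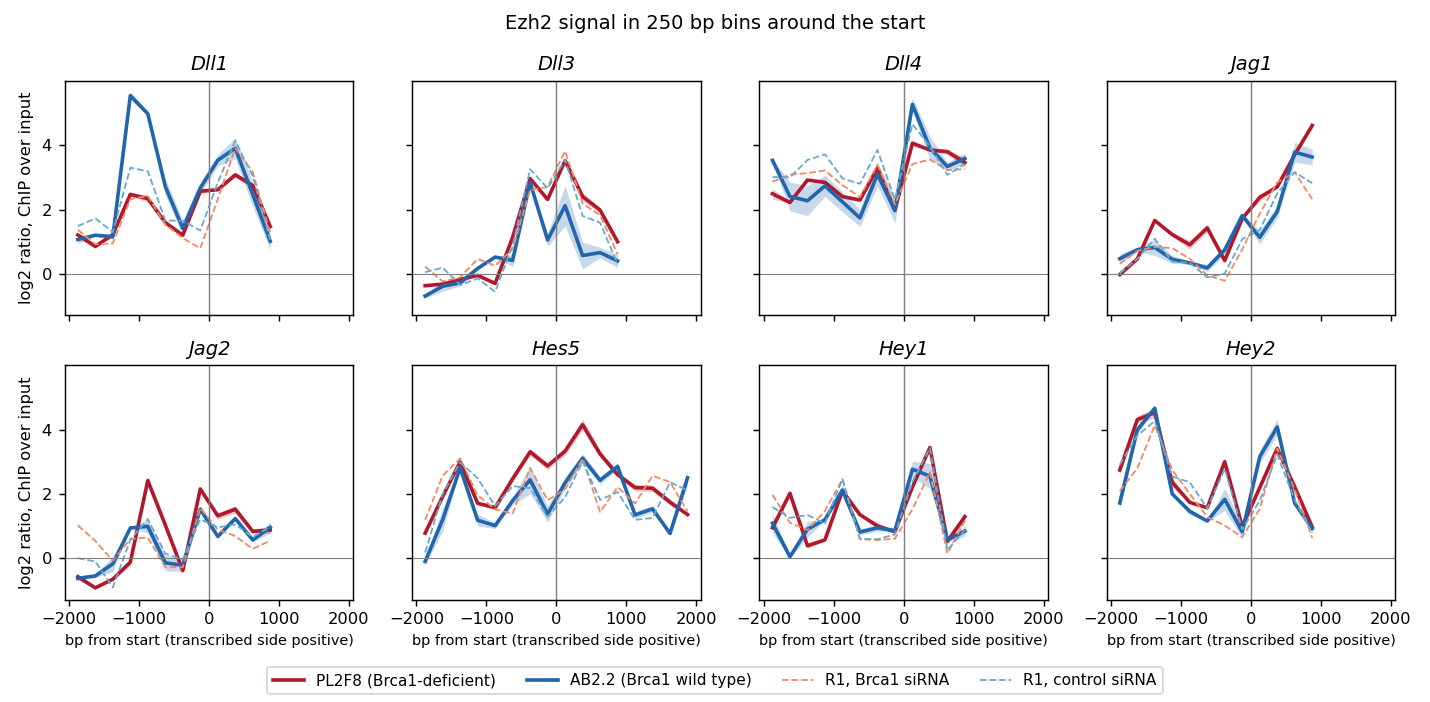
Mean log2 ratio of Ezh2 ChIP over input (vertical axis) in 250 bp bins by distance from the start (horizontal axis, transcribed side positive). Solid lines are means of 2 arrays with shading from the lower to the higher array and dashed lines are the single R1 arrays; the AB2.2 summit of Dll1 about 1.1 kb upstream reaches 5.54, against 2.47 in PL2F8.

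Dll3 differed more on the other side of its start. Downstream it was higher in PL2F8 by 1.44 (limma adjusted p = 0.0027) and upstream by 0.26 (limma adjusted p = 0.0081). From 250 to 500 bp downstream it had 2.54 and 2.27 in PL2F8, against 0.98 and 0.16 in AB2.2, while R1 cells had 2.19 with Brca1 siRNA and 1.80 with control siRNA. From 500 to 250 bp upstream the lines lay close together, with 2.92 and 3.00 in PL2F8 and 2.92 and 2.76 in AB2.2. In the bins between, PL2F8 was higher on both sides of the start. From 250 bp upstream to the start, PL2F8 had 2.30 and 2.32 and AB2.2 had 1.25 and 0.86. From the start to 250 bp downstream, PL2F8 had 3.60 and 3.44 and AB2.2 had 2.74 and 1.49. Of the 28 probes of Dll3, 19 had both PL2F8 arrays on top.

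Hes5 was higher in PL2F8 along most of its window, at 30 of 40 probes. Its PL2F8 summit, 250 to 500 bp downstream, had 4.32 and 3.98, against 3.25 and 2.98 in AB2.2, with 3.10 for R1 Brca1 siRNA and 3.00 for R1 control siRNA. In the last bin, 1750 to 2000 bp downstream, the order was turned, with 1.40 and 1.32 in PL2F8 and 2.73 and 2.27 in AB2.2. Jag1 had its signal downstream, with 4.69 and 4.53 in PL2F8 and 3.88 and 3.38 in AB2.2 at the single probe beyond 750 bp. Jag2 had a PL2F8 summit 1000 to 750 bp upstream of 2.56 and 2.28, against 1.21 and 0.78 in AB2.2, beside a bin 1250 to 1000 bp upstream with -0.01 and -0.22 in PL2F8 and 0.94 and 0.95 in AB2.2. Its small overall difference was thus a sum of probes that went both ways.

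Dll4, which did not pass over its whole window, differed at its summit and in bins upstream. PL2F8 minus AB2.2 was -1.04 from 2000 to 1750 bp upstream and 0.64 from 1500 to 1250 bp upstream. From the start to 250 bp downstream Dll4 had 4.16 and 3.96 in PL2F8, against 5.48 and 5.05 in AB2.2. The same bin had 3.41 with Brca1 siRNA and 4.66 with control siRNA in R1 cells. The highest running mean of 5 probes was taken on each array wherever in the window it lay. It was lower in PL2F8 at Dll4 by -0.72 (limma adjusted p = 0.0246) and at Dll1 by -2.37. At Dll1, Dll3, Jag1, Jag2 and Hey1 the summit bins of PL2F8 and AB2.2 differed, so there the measure may compare unlike stretches.

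Hey1 and Hey2 also held opposite bins. Hey1 had 2.13 and 1.91 in PL2F8 and 0.09 and 0.01 in AB2.2 between 1750 and 1500 bp upstream, with 1.10 and 1.26 on the R1 Brca1 siRNA and control arrays. From the start to 250 bp downstream it had 2.26 and 2.17 in PL2F8 and 3.01 and 2.52 in AB2.2. Hey2 had its summit 1500 to 1250 bp upstream on all 6 arrays, at 4.68 and 4.36 in PL2F8, 4.70 and 4.63 in AB2.2, 4.13 with Brca1 siRNA and 4.27 with control siRNA. Its second mound, 250 to 500 bp downstream, was lower in PL2F8, at 3.51 and 3.32 against 4.32 and 3.83 in AB2.2.

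The sides of the start were compared within each array, as the mean downstream minus the mean upstream. This contrast was higher in PL2F8 at Dll3, by 1.18 (SE 0.18, limma adjusted p = 0.00164), and at Dll1, by 0.52 (SE 0.15, limma adjusted p = 0.0229). The Dll1 call was lost without either PL2F8 array (limma adjusted p = 0.106 without replicate 1 and 0.0962 without replicate 2), and the value was 0.32 without AB2.2 replicate 2. The median contrast over all windows was 0.33. At Hey2 the contrast was lower, by -0.78 (SE 0.11, limma adjusted p = 0.00102). Over all windows 48% were called higher and 15.1% lower, against 2 and 1 of the 8 genes. Taken alone, the downstream side was called higher in 60.7% and lower in 7.48% of all windows, and the upstream side higher in 51.8% and lower in 15.3%. At Hey2 the downstream side fell by 0.36 (limma adjusted p = 0.0496) while the upstream side rose by 0.42 (limma adjusted p = 0.0029), and its whole-window value averaged over these. At Dll1 the upstream side fell by 0.93 (limma adjusted p = 5.5e-05), and the downstream side differed by -0.41 without passing (limma adjusted p = 0.12). Dll4, Jag1, Jag2, Hes5 and Hey1 did not pass for the contrast, with Jag1 the nearest at 0.41 (limma adjusted p = 0.0525).

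In the authors' deposited table of peaks, called for each array separately, all 8 genes had a listed peak on PL2F8 replicate 1, AB2.2 replicate 1 and the R1 control array. On the other 3 arrays the exception was Jag2. Of the 9612 genes with a window, 68.8% and 67.5% had a listed peak on the PL2F8 arrays. On the AB2.2 arrays 58.5% and 51.6% had one, and in R1 68.5% with Brca1 siRNA and 66.7% with control siRNA. Both the 9612 and the 8 were taken from these lists, so each gene had a peak on some array. Peaks under other names were not looked for at the upstream summit of Dll1. Under the name Dll1 the deposited table lists, on every array, a peak near the start and not this summit. Only the AB2.2 peaks spanned the start, and those of PL2F8 and R1 lay downstream of it. The PL2F8 and AB2.2 peaks overlap but differ in their ends, so their scores are of unlike stretches. They scored 3.14 and 2.88 in PL2F8, against 3.80 and 3.36 in AB2.2 (per the file headers, the fourth highest probe of a peak, as log2, gives its score). The Dll3 peak, at the same place on these 4 arrays, scored 2.74 and 2.80 in PL2F8, against 1.53 and 1.39 in AB2.2, in the authors' deposited table. At Hes5 the authors' deposited table lists different stretches in the lines, of 1265 and 1345 bp in PL2F8 and of 360 and 760 bp in AB2.2, so their scores were not compared. With a false discovery rate of at most 0.05, the table kept peaks for 8 and 7 of the genes in PL2F8, 6 and 6 in AB2.2, 6 with Brca1 siRNA and 6 with control siRNA. At that threshold the shares of the 9612 genes were 42.5% and 43.6% in PL2F8 and 39.3% and 35.3% in AB2.2. They were 44.4% with Brca1 siRNA and 42% with control siRNA. The genes missed in AB2.2 were Jag1 and Hey2 on replicate 1 and Jag1 and Jag2 on replicate 2. The peaks listed there for Jag1 and Hey2 differ in position from those listed in PL2F8, so the counts compare unlike stretches. From 250 to 500 bp downstream, inside the stretch listed in PL2F8, Hey2 had 4.32 on AB2.2 replicate 1, against 3.51 and 3.32 in PL2F8.

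The other genes of the pathway had a median difference close to that of all windows. Of 54 chosen genes, 37 had a window, which only genes named in the peak lists could have. Of these 37, 27 rose in PL2F8, 0 fell and 10 did not pass in the limma test. The median difference of the 37 was 0.32, against 0.30 over all windows. Of the 45 Notch genes measured, Dll1 was the 1 called lower by its window mean with median centring. Quantile normalization also called Dll4 and 5 of the other pathway genes lower, and the median of the probes called 2 other pathway genes lower and not Dll1. Of the 4 receptors, Notch2 rose by 0.82, Notch4 by 0.67 and Notch3 by 0.20, and Notch1 differed by 0.12 without passing. Notch2 had 1.02 and 0.97 in PL2F8, against 0.23 and 0.13 in AB2.2, so in PL2F8 its signal was under that of every ligand except Jag2.

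The 27 of 37 stood against 63.5% of all windows called higher, and were 18 under quantile normalization and also 18 with centring on windows with no listed peak. In the group that processes ligands and receptors, 10 of 11 rose. The largest rise was 0.90 at Rfng, a glycosyltransferase that tunes which ligand Notch answers, and the lowest value was -0.08 at Furin, the protease that matures the receptor, which did not pass. Of 6 nuclear effectors 3 rose, with 0.86 at the coactivator Crebbp as the highest and -0.06 at the coactivator Maml3 as the lowest. Of 5 modulators and non-canonical ligands 3 rose, with 0.99 at Dtx1 and -0.08 at Dtx4, both of the Deltex family of ubiquitin ligases. Of 11 other targets 8 rose. There the highest was 0.87 at Ccnd1, which encodes cyclin D1, and the lowest was Hes1, a Hes gene that oscillates in ES cells. Hes1 had 0.69 and 0.69 in PL2F8, against 0.89 and 0.73 in AB2.2, a difference of -0.12 (limma adjusted p = 0.18), where Hes5 had risen.

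**Figure D4:**
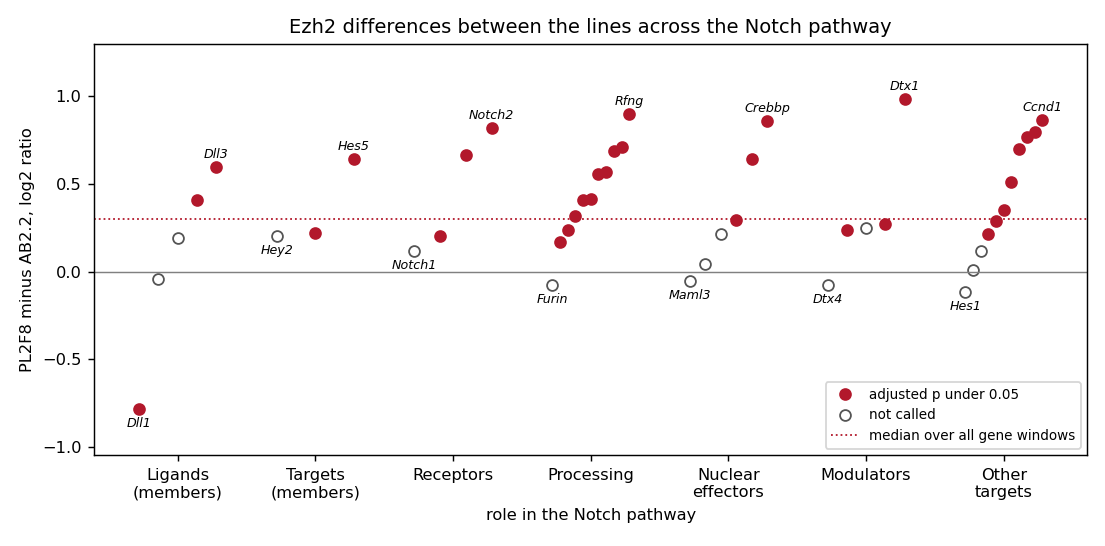
PL2F8 minus AB2.2 in mean log2 ratio (vertical axis) for the 8 genes and 37 other Notch pathway genes by role (horizontal axis), filled where the adjusted p was under 0.05. Genes of a role are ordered by their value, the dotted line is the median of all windows at 0.30, and Dll1 is the 1 filled point below 0 for these median-centred window means.

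For each gene, the gene with the nearest values over the 6 arrays was found as the smallest root mean square difference. Dll1 had few neighbours: the nearest was Tbx20, a heart transcription factor gene, at 0.195, and it was the only gene within 0.2. Tbx20 had 2.19 and 2.05 in PL2F8, 2.91 and 2.82 in AB2.2, 2.07 with Brca1 siRNA and 1.93 with control siRNA, so that the R1 order was turned against that of Dll1. Dll4 was nearest to Kif1a at 0.141, with 7 genes within 0.2. Hes5 was nearest to Rspo1, which encodes a secreted Wnt enhancer, at 0.063, with 97 genes within 0.2, and Hey2 was nearest to Frmd3 at 0.0717, with 43. Dll3 with Otop3 at 0.0405, Jag1 with Sertad4 at 0.0767, Jag2 with Plekha5 at 0.0434 and Hey1 with Pcdhgb5 at 0.0588 lay in more crowded ranges, with between 137 and 857 genes within 0.2.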

How the data were processed

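Ezh2 ChIP DNA (Cy5) and input DNA (Cy3) were hybridised to 6 NimbleGen promoter tiling arrays, with no dye swap, per the labels. The deposited table gives 1 log2 ratio of ChIP over input for each of 714900 probes; the authors normalized it, per the labels, but the sources used here name no normalization method, peak caller or genome build. Column medians were 0.02 to 0.04. Direction and scale were checked against the peak scores, which are log2 ratios of the fourth highest probe per the file headers (r between 0.969 and 0.986). The false discovery rate of each deposited peak is on the scale of a p-value, as a fraction, per the file headers.

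Arrays were centred on their medians, with no loess or quantile step. Windows needed 5 probes and held a median of 28; genes with several listed starts kept the one with most probes. Only genes listed beside a peak could be named. The test of PL2F8 against AB2.2 used limma 3.58.1 (R 4.3.3, 2 arrays each, two-sided, Benjamini-Hochberg over all windows). Each value rests on 2 arrays, which limits its precision. The test was also run on simulated data with 200 changed windows. In these data 72% of windows were called, so that run does not bear on the calls given here. Python 3.11.15 did the rest. Alternatives were a replicate block, leaving out arrays, other windows, summaries and scalings. The members, gene lists and tests were chosen with earlier results of these data known. Named genes were the 8 members, the receptors, Hes1, the highest and lowest of each pathway role, and each member's nearest gene; promoters were shown for the highest, lowest, most raised and most lowered member.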

Additional observations from a re-analysis of the deposited data

Results flagged for a closer look

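Hey1 and Hey2 stood out because the comparisons went opposite ways. At both genes each PL2F8 array lay above each AB2.2 array, while the R1 Brca1 siRNA array lay below the R1 control array, by -0.14 at Hey1 and -0.35 at Hey2. The same held for 35.7% of all windows. Quantile normalization turned PL2F8 minus AB2.2 to -0.0477 at Hey1 and -0.0174 at Hey2, the direction of R1, and with the median of the probes the R1 difference at Hey1 was 0.025. Both differences between the lines also lay below the median of all windows, by 0.08 at Hey1 and 0.10 at Hey2. The difference between the comparisons was not tested, since R1 has 1 array per condition.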

How the results depend on the processing

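In all alternatives run, Dll1 stayed lower and Dll3, Jag1 and Hes5 stayed higher in PL2F8, though the rises were smaller under quantile normalization (0.38, 0.17 and 0.28) and Jag1 was 0.26 with centring on windows with no listed peak; the cause of the changes listed here was not tested. Leaving out single arrays gave -0.93 to -0.64 at Dll1, 0.46 to 0.73 at Dll3, -0.33 to 0.24 at Dll4, 0.32 to 0.49 at Jag1, 0.0882 to 0.29 at Jag2, 0.49 to 0.79 at Hes5, 0.13 to 0.31 at Hey1 and 0.10 to 0.31 at Hey2. Each of these fits has 1 array in a group and takes its spread from the other pair alone. Without an AB2.2 array that is the closer PL2F8 pair, so the ranges of calls that follow rest on unlike spreads. Counts of the 8 genes were 3 to 7 higher and 1 to 2 lower, other pathway genes called lower 0 to 1, all windows lower 484 to 1199; for downstream minus upstream, 1 to 4 of the 8 were called higher and 1 to 3 lower, Dll1 ranged from 0.32 to 0.72 and Hey1 from -0.0924 to 0.14. With probes within 1 kb, Dll4 was 0.0347, Jag2 0.58 (called), Hey1 0.19 (not called), 1 pathway gene was lower, the side contrast at Jag2 was -0.47 with 3 of the 8 lower, and 1096 windows differed by 0.5 in R1. With the median of the probes, Dll1 was -0.53 (not called), Hey1 0.16 (not called), Hey2 0.57 (called), 0 of the 8, 2 pathway genes and 470 windows were lower, and 880 windows differed in R1. With the highest running mean of 5 probes, Dll4 was -0.72 (called), Jag1 0.39 and Hey1 0.31 (not called), Jag2 0.61 (called), Hey2 -0.022, 2 of the 8, 1 pathway gene and 1418 windows were lower, and 2 of the 8 and 3267 windows differed in R1. Quantile normalization gave -0.35 at Dll4 (called), -0.0299 at Jag2, -0.0477 at Hey1 and -0.0174 at Hey2, 2 of the 8, 5 pathway genes and 1970 windows lower, and side contrasts of 0.0887 at Dll4 and -0.0176 at Hey1; the median of all windows was 0.14, that of the 8 genes -0.02, and 71% of calls were higher, against 88.1% with median centring. Scaling to 1 spread gave 0.19 at Jag2 and 0.18 at Hey2 (both called) and 1 of the 8 past 0.5 in R1. Centring on windows with no listed peak gave 0.0747 at Hey1 (not called), a median of 0.15 over all windows, and 4 pathway genes and 1585 windows lower. Without the probes 1250 to 500 bp upstream, added after seeing the data, Dll1 was -0.21 (not called). Fitting the replicate number as a block gave 0.19 at Jag2 (adjusted p = 0.00597) and 0.20 at Hey2 (adjusted p = 0.00348), both then called, and called the side contrast at Jag1, 0.41 (adjusted p = 0.0175), with 6 of the 8 and 6647 windows higher; deviations of same-numbered arrays correlated at 0.246 over windows in the 2 pairs, which share only a number. Other listed starts could not be tried, as each of the 8 genes has 1.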
